A study of Sus scrofa with 102 samples.

Results

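*FOS*, *MYC*, *ATF3*, *NR4A3* and *CREM* are immediate-early response genes, and they were 5 of the 2201 genes named on porcine expression arrays hybridised with RNA of *Longissimus dorsi*, the long muscle of the back. Their probes were those that the array annotation pairs with one of these symbols and no other, 8 probes in all, and for *NR4A3* and *CREM*, which had several, the probe with the highest mean stood for the gene. The arrays came from 102 backcross pigs, 1 array per animal. Iberian boars of the Guadyerbas strain had been crossed with Landrace sows, and the resulting F1 boars were mated with Landrace sows again. All pigs were fed ad libitum and no treatment was applied. The animals were slaughtered in 3 batches, and they are grouped here by sex and by batch. Batch 1 held 8 females and 6 males aged 171 to 181 days, batch 3 held 11 females and 7 males aged 178 to 181 days, and batch 2 held 36 females and 34 males aged 178 to 184 days. Carcass weight ranged between 43.6 and 97.8 kg. The pigs are related, and the pedigree was not used here.

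Immediate-early genes are transcribed within minutes of a stimulus, from factors already present in the cell, and their transcripts are short-lived. In skeletal muscle they are known to respond to contraction, adrenaline and cyclic AMP, stretch, heat and injury. *FOS* encodes a subunit of the AP-1 transcription factor, *MYC* a regulator of ribosome production and growth, and *ATF3* a stress-induced factor of the ATF/CREB family. *NR4A3* encodes an orphan nuclear receptor that adrenergic stimulation and exercise induce in muscle, and *CREM* encodes activators and repressors that act at cyclic AMP response elements, among them an inducible repressor that feeds back on its own gene.

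The values are log2 intensities after GCRMA, so a difference of 1 is a change of 2 times. Defining genes of skeletal muscle were high on every array, with a mean over 7 measured genes of 12.01 to 14.21. This is whole tissue, so fewer cells of a type and less RNA per cell cannot be told apart. Slaughter batch marked most of the array, since 4721 of 5449 probes (86.6%) differed among the batches. On 3 arrays labelled female the Y-linked gene *EIF1AY* lay above the midpoint between the medians of females and males, and the results on sex were repeated without them.

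All 5 genes varied widely among pigs of the same cross. *NR4A3* was lowest at 2.44, had its median at 7.64 and was highest at 13.01, a span of 10.57 log2 units (mean 7.71 ± 2.70, SD, n = 102). *FOS* was lowest at 5.44, had its median at 9.73 and was highest at 13.49 (9.69 ± 2.02, SD, n = 102). *ATF3* was lowest at 4.15, had its median at 7.96 and was highest at 12.48 (8.07 ± 1.85, SD, n = 102). The SD of these 3 genes ranked 9, 14 and 24 of 5449 probes in that order, against a median SD of 0.633 over all probes. *MYC* was lowest at 4.66, had its median at 6.71 and was highest at 11.62 (6.88 ± 1.14, SD, n = 102). *CREM* was lowest at 8.58, had its median at 10.44 and was highest at 13.34 (10.54 ± 0.91, SD, n = 102). The SD of *MYC* ranked 289 and that of *CREM* 818, so both also lay in the upper part of the distribution. Because the deposited table had been filtered by its authors for probes that vary, these ranks are among variable probes.

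Sex, batch and carcass weight together left most of this spread in place. They took up 10.6% of the variance of *FOS*, 13.8% of *ATF3*, 19.0% of *NR4A3*, 21.9% of *MYC* and 31.1% of *CREM*, against a median of 35.3% over all probes. Of the spread that remained, *NR4A3* had the second largest SD of all 5449 probes (rank 2), *FOS* ranked 6 and *ATF3* ranked 12.

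The same animals tended to be high for all 5 genes. A total of 24 pigs were above the median of all 5 and 22 were above the median of none, while 10 pigs were above the upper quartile of all 5 genes and 4 below the lower quartile of all 5. The ends did not coincide fully. A male of batch 2 was the highest pig for both *FOS* and *MYC* and ranked 2 for *ATF3*, but it ranked 18 for *NR4A3* and 32 for *CREM*. A male of batch 1 was highest for both *ATF3* and *CREM*, and it ranked 4 for *FOS*, 5 for *MYC* and 17 for *NR4A3*. The lowest pig was a different animal for each gene.

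**Figure D1:**
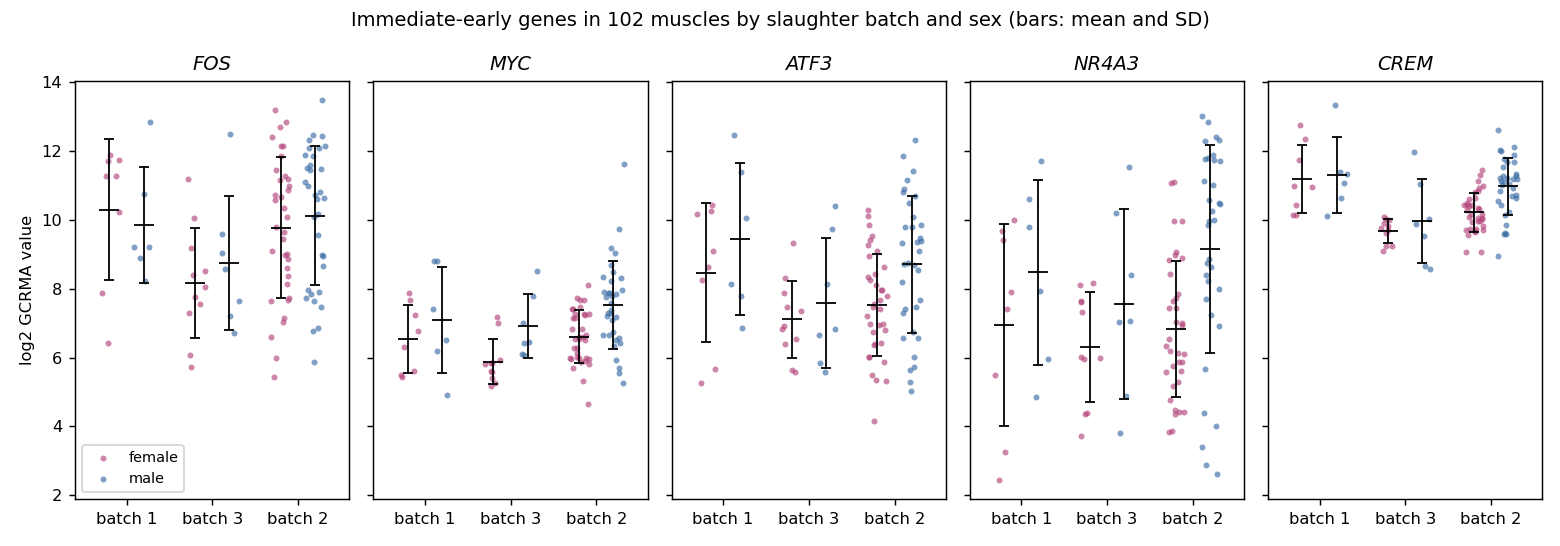
log2 intensity (vertical axis) of *FOS*, *MYC*, *ATF3*, *NR4A3* and *CREM* in each of 102 pigs, by slaughter batch and sex. Each point is a pig and each bar with its error is the group mean ± SD. *CREM* lay lowest in batch 3 (9.79 ± 0.79) and *NR4A3* lay lower in females than in males, with the groups overlapping throughout.

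Females had lower levels than males of 4 of the 5 genes. *NR4A3* ranged from 2.44 to 11.10 in the 55 females with a median of 6.54, against 2.60 to 13.01 in the 47 males with a median of 9.81. Its mean was 6.75 ± 2.05 in females and 8.83 ± 2.94 in males (SD), and the upper quartile of males, 11.33, lay above every female. With batch and weight in the model, *NR4A3* was lower in females by 2.20 log2 units, or 4.61 times (female minus male −2.20, SE 0.49, adjusted p = 0.000446, limma). *MYC* was 6.45 ± 0.82 in females and 7.39 ± 1.26 in males, a difference of −0.91 (SE 0.21, adjusted p = 0.000547). *ATF3* was 7.58 ± 1.54 in females and 8.64 ± 2.02 in males, a difference of −1.06 (SE 0.35, adjusted p = 0.0166). *CREM* was 10.26 ± 0.74 in females and 10.87 ± 0.99 in males, a difference of −0.61 (SE 0.15, adjusted p = 0.00191). The ranges of females and males overlapped widely for each of these genes. All 4 genes passed again without the 3 arrays whose *EIF1AY* level went against the label. Among all probes, 1422 of 5449 (26.1%) passed for sex, 782 (14.4%) lower in females and 640 (11.7%) higher.

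*FOS* was the exception. It ranged from 5.44 to 13.19 in females with a median of 9.65 and from 5.86 to 13.49 in males with a median of 10.09. The means were 9.53 ± 2.06 in females and 9.89 ± 1.99 in males, and the difference of −0.19 did not pass the test (95% interval −0.95 to 0.58, adjusted p = 0.754). The interval allows a female level lower by as much as 0.95, close to the difference of *MYC*. The gap between *FOS* and the other genes was therefore tested directly, by subtracting the *FOS* value of each array. Relative to *FOS*, *NR4A3* was lower in females by 2.02 log2 units (adjusted p = 0.000511 by limma, which called 14 of 5448 probes, 0.257%). For *ATF3* (−0.87), *MYC* (−0.72) and *CREM* (−0.42) the same difference did not pass (adjusted p = 1 for each), but with array weights *ATF3* (−0.95, adjusted p = 0.00857) and *MYC* (−0.75, adjusted p = 0.00845) passed. Without array weights, limma gave all 4 genes the same SE (0.41), so its p-values do not measure each gene's own spread. Permuting sex within batch gave p = 9e-05 for *NR4A3*, 0.00878 for *ATF3*, 0.027 for *MYC* and 0.24 for *CREM*, each for its own gene with no adjustment. The *NR4A3* call by limma was lost with the second *NR4A3* probe in place of the first (adjusted p = 0.13).

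For 4 of the genes the direction was the same in each batch. *NR4A3* was lower in females by 1.1 (SE 1.30) in batch 1, by 1.52 (SE 0.93) in batch 3 and by 2.50 (SE 0.61) in batch 2. *MYC*, *ATF3* and *CREM* were likewise lower in females in all 3 batches, at −0.67, −1.04 and −0.15 in batch 1, at −1.06, −0.60 and −0.41 in batch 3, and at −1.0, −1.21 and −0.78 in batch 2. None of these 4 genes passed in batch 1 or batch 3 alone, while all 4 passed in batch 2. A test of whether the sex difference changed with batch called none of the 5 genes, nor any of 5449 probes (425 at an unadjusted p under 0.05). For *FOS* the sign turned, at 0.54 in batch 1 and −0.63 and −0.11 in batches 3 and 2.

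Among other immediate-early genes, those that passed for sex were all lower in females. Of 65 other immediate-early genes listed, 30 had a probe, and 10 were lower in females and 0 were higher, with a median difference of −0.25 against −0.03 over all probes. Among them *FOSL2*, a relative of *FOS* in AP-1, averaged 2.68 ± 0.51 in females and 3.92 ± 1.47 in males (difference −1.18, SE 0.20, adjusted p = 6.87e-06). With a mean of 3.25 over all pigs, *FOSL2* lay near the bottom of the scale, so the size of its difference is uncertain. *NFIL3*, a transcriptional repressor that cyclic AMP induces, was 6.24 ± 0.78 in females and 7.36 ± 1.30 in males (−1.08, adjusted p = 1.41e-05). *CYR61*, a secreted matrix protein, fell by 0.84 in females (adjusted p = 0.00974) and *BTG2*, an antiproliferative gene, fell by 0.59 (adjusted p = 0.0447). In contrast, *DUSP1*, the phosphatase that switches off MAP kinases, differed by 0.04 (adjusted p = 0.89) and *EGR1*, a zinc finger factor, by −0.10 (adjusted p = 0.859). Of the AP-1 and ATF/CREB factors other than the 5 genes, 6 of 34 were measured and 4 were lower in females, among them *DDIT3*, the stress factor CHOP (−0.70, adjusted p = 0.00488), and *CEBPB* (−0.38, adjusted p = 0.00394).

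**Figure D2:**
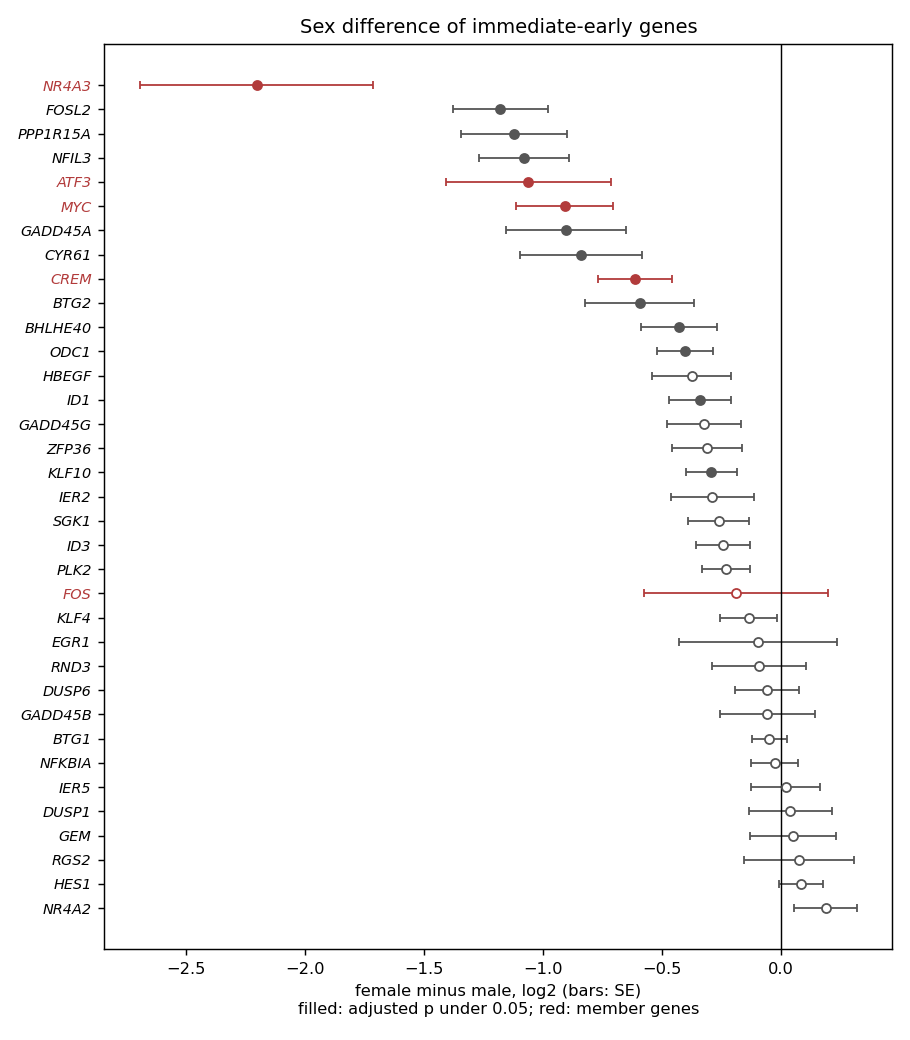
Difference in log2 intensity, female minus male, of the 5 genes (red) and the 30 other measured immediate-early genes (grey), from the model with batch and carcass weight over 102 pigs. Bars are the SE and filled points passed the test. Values left of 0 are lower in females, and *NR4A3* (−2.20) lies farthest from 0.

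Several known targets of these factors were lower in females too. Of the MYC targets, 8 of 34 were measured and 7 were lower in females, with *EIF4A1*, the RNA helicase of translation initiation, at −0.47 (adjusted p = 0.000599), *ODC1*, the enzyme that starts polyamine synthesis, at −0.40 (adjusted p = 0.00689) and *NOP2*, a ribosomal RNA methyltransferase, at −0.27 (adjusted p = 0.000897). Among cyclic AMP targets, 3 of 7 measured genes were lower in females. They were *PPARGC1A*, the coactivator of mitochondrial gene programmes (10.13 ± 0.98 in females and 11.47 ± 1.68 in males, −1.43, adjusted p = 1.81e-05), *VEGFA*, an angiogenic growth factor (−0.90, adjusted p = 9.9e-05), and *NFIL3*. The other nuclear receptor of the family that was measured, *NR4A2*, differed by 0.19 (adjusted p = 0.292). In the heat shock and stress list 7 of 21 measured genes were lower in females, such as *DNAJB9*, a chaperone of the endoplasmic reticulum (−0.49, adjusted p = 0.000446). Of 12 measured genes of cyclic AMP signalling itself, 1 was lower in females and 0 were higher.

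Among the 5 genes, slaughter batch separated the pigs most clearly by *CREM*. Its F statistic over the 3 batches was 14.5, below the median of 17.9 over all probes, and the other members lay at 2.00 to 3.98. The test over the 3 batches called *CREM* (adjusted p = 4.94e-06), *FOS* (0.0257), *ATF3* (0.0461) and *MYC* (0.048) but not *NR4A3* (0.154), and 4 of 5 is close to the 86.6% called among all probes. The 14 pigs of batch 1 had a mean *CREM* level of 11.24 ± 1.00, the 18 of batch 3 one of 9.79 ± 0.79 and the 70 of batch 2 one of 10.59 ± 0.80. Every pair of batches differed for the *CREM* probe that stood for the gene, with batch 1 above batch 2 by 0.63 (SE 0.23, adjusted p = 0.0103), batch 3 below batch 2 by 0.80 (difference −0.80, SE 0.21, adjusted p = 0.000409) and batch 1 above batch 3 by 1.44 (SE 0.27, adjusted p = 7.27e-05). The third *CREM* probe was instead higher in batch 3 than in batch 2 (0.78, adjusted p = 3.1e-07). For that probe batch 1 minus batch 3 did not pass (−0.16, adjusted p = 0.59). In all, 32.7% of probes were higher and 41.5% lower in batch 1 than in batch 2, and 8.18% were higher and 8.59% lower in batch 1 than in batch 3. No other member passed in either of these comparisons. For *CREM* the call between batches 1 and 2 was lost with age added (0.50, adjusted p = 0.159) and in males only (0.22, adjusted p = 0.665), and that between batches 1 and 3 was lost in males only (1.31, adjusted p = 0.25).

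By the probe that stood for each gene, batch 3 had the lowest mean for each of the 5 genes. Mean *FOS* was 10.11 ± 1.84 for batch 1, 8.39 ± 1.71 for batch 3 and 9.95 ± 2.02 for batch 2, and batch 3 was lower than batch 2 by 1.33 (difference −1.33, SE 0.53, adjusted p = 0.0175). Mean *MYC* was 6.78 ± 1.23 for batch 1, 6.28 ± 0.91 for batch 3 and 7.06 ± 1.14 for batch 2, and batch 3 differed from batch 2 by −0.72 (SE 0.28, adjusted p = 0.0156). For *ATF3* the means were 8.89 ± 2.08, 7.30 ± 1.44 and 8.11 ± 1.84 in batches 1, 3 and 2, and for *NR4A3* they were 7.61 ± 2.84, 6.79 ± 2.14 and 7.96 ± 2.78. The differences between batch 3 and batch 2 were −0.76 for *ATF3* (adjusted p = 0.132) and −1.33 for *NR4A3* (adjusted p = 0.0606), and neither passed. With 2 principal components of all probes in the model both passed, at −0.76 for *ATF3* (adjusted p = 0.0347) and −1.33 for *NR4A3* (adjusted p = 0.00798), and so did the test of *NR4A3* over the 3 batches (adjusted p = 0.0251). The components left the differences of −0.76 and −1.33 unchanged, so these were not adjusted for variation shared over the array. The call of *FOS* between batches 3 and 2 was lost with array weights (−0.88, adjusted p = 0.108), without the 5 arrays least correlated with the rest (−1.01, adjusted p = 0.112), in females only (−1.04, adjusted p = 0.155) and in males only (−1.52, adjusted p = 0.0852). That of *MYC* was lost without those 5 arrays (−0.55, adjusted p = 0.109) and in males only (−0.72, adjusted p = 0.212). Thus 3 of the 5 genes were called lower in batch 3 than in batch 2, where 45.3% of all probes were.

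Other immediate-early genes were also low in batch 3. Of the 30 measured, 17 were lower than in batch 2 and 3 were higher, with a median difference of −0.49 against −0.17 over all probes. *CYR61* averaged 5.54 ± 1.05 in batch 3 and 7.46 ± 1.42 in batch 2 (difference −1.80, adjusted p = 2.88e-06), *BTG2* differed by −1.71 (adjusted p = 8.62e-07) and *DUSP1* by −1.40 (adjusted p = 1.28e-07), while *EGR1* differed by 0.12 (adjusted p = 0.814). A measure of RNA integrity moved with the batches. The 5′ probe of actin minus its middle probe was at −1.28 ± 0.30 for batch 1, −1.32 ± 0.43 for batch 3 and −0.80 ± 0.29 for batch 2, and its part in these differences was not tested. With it in the model the test over the 3 batches did not pass for *FOS* (adjusted p = 0.0684), *MYC* (0.0858) or *ATF3* (0.0548). The difference between batches 3 and 2 was then −0.75 for *FOS* (adjusted p = 0.25), −0.75 for *MYC* (adjusted p = 0.0316) and −0.85 for *CREM* (adjusted p = 0.00142). The calls over the 3 batches of *FOS* (0.0575) and *ATF3* (0.156) were lost when age was added. Carcass weight had no detectable relation to any of the 5 genes, nor to any of the 5449 probes (0 called by limma, 589 at an unadjusted p under 0.05).

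Once sex, batch and weight were taken out, the 5 genes moved together across pigs. All 10 pairs correlated positively, and each pair was positive within each of the 3 batches. The closest pairs were *NR4A3* with *CREM* (Pearson r = 0.71, Spearman rho = 0.72), *ATF3* with *NR4A3* (r = 0.70) and *MYC* with *ATF3* (r = 0.68), over 102 pigs. *FOS* was most like *ATF3* (r = 0.62) and *MYC* (r = 0.57), and least like *NR4A3* (r = 0.41) and *CREM* (r = 0.39), the lowest of the 10. Without the 2 pigs that lay farthest from the first gene's median, r was between 0.41 and 0.71. In the model with each gene's residual as the predictor, all 4 other members passed for every one of the 5 genes, with adjusted p over all probes between 1.95e-14 and 0.00108. With 2 principal components of all probes added, 8 of these 20 calls were lost, those of *FOS* and *MYC* with *NR4A3* and with *CREM* in both orders (adjusted p of 0.152 to 0.792). The share of all probes called in the same direction was 8.83% with *FOS*, 15.0% with *MYC*, 14.0% with *ATF3*, 14.9% with *NR4A3* and 11.0% with *CREM*. The shares called in the opposite direction, where no member lay, were 9.99%, 14.4%, 13.8%, 13.6% and 9.95% in the same order. Slopes that change with batch were called for none of the 20 ordered pairs of members (0 at an unadjusted p under 0.05), and for 0.0551%, 0.0367%, 0.330%, 0.404% and 0.0184% of all probes with *FOS*, *MYC*, *ATF3*, *NR4A3* and *CREM*.

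When the other 3 members were held constant, some links remained larger than others. *NR4A3* with *CREM* kept a partial r of 0.46 and *ATF3* with *NR4A3* of 0.39. *FOS* with *ATF3* and *MYC* with *ATF3* kept 0.35 each and *FOS* with *MYC* 0.27, whereas *FOS* with *NR4A3* was at −0.02. These partial values are given as a description of 102 pigs whose genes were read from the same arrays. Measures of the array itself had r with the members of −0.04 to 0.20 for the actin difference, −0.01 to 0.11 for the spike-in controls and 0.06 to 0.12 for the array median. Within batches these values were mixed, and the array median had r with *FOS* of 0.60 in batch 1, −0.44 in batch 3 and 0.18 in batch 2.

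**Figure D3:**
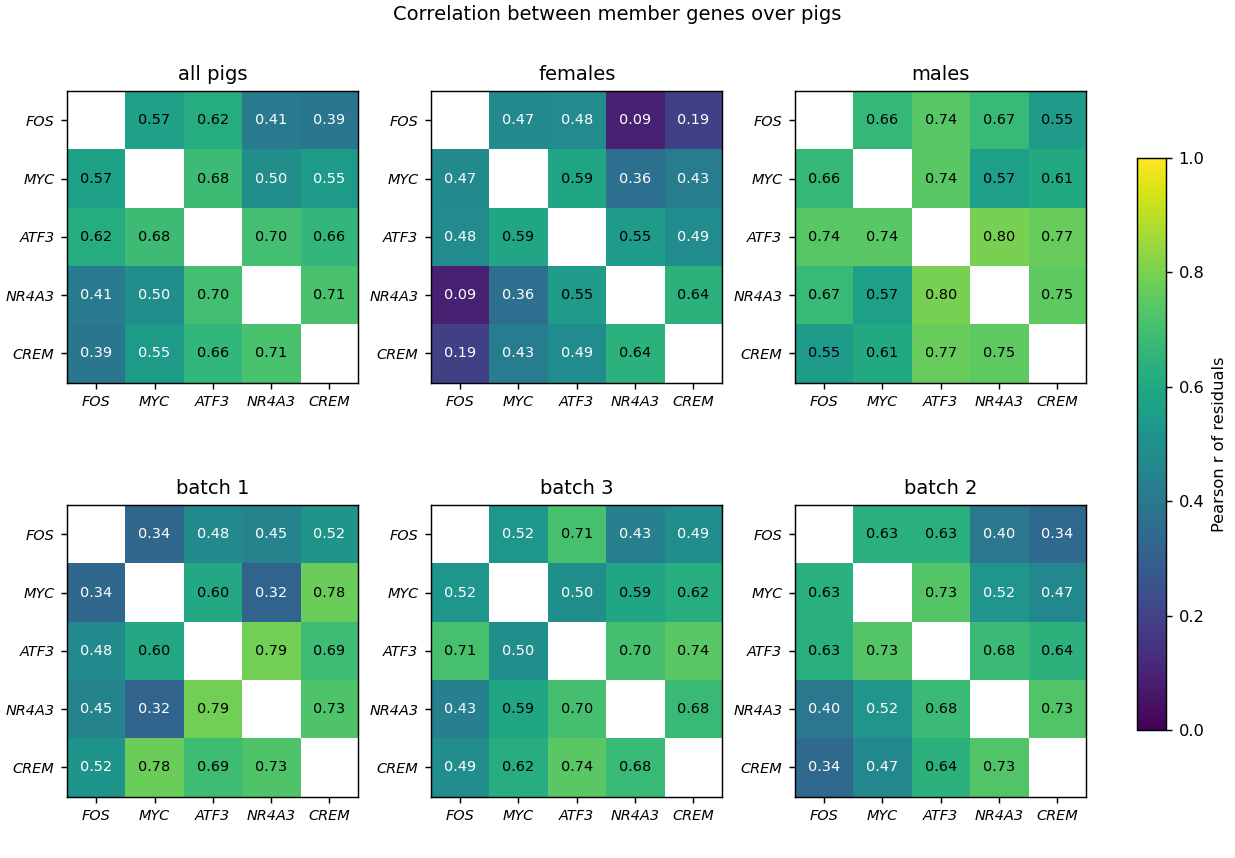
Pearson r of the residuals after sex, batch and carcass weight for each of the 10 pairs of *FOS*, *MYC*, *ATF3*, *NR4A3* and *CREM*, with colour for r. The upper panels hold all 102 pigs, the 55 females and the 47 males, and the lower panels hold batches 1, 3 and 2. With all batches pooled each pair has a lower r in females than in males, and *FOS* with *NR4A3* has the widest gap (0.09 in females and 0.67 in males).

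With all batches pooled, each pair had a lower r in females than in males. This held for 1 of the 10 pairs within batch 1, 9 within batch 3 and 10 within batch 2. In batch 1, with 8 females and 6 males, *MYC* with *NR4A3* had r of 0.81 in females and −0.14 in males. Over all batches, in females r ranged from 0.09 for *FOS* with *NR4A3* to 0.64 for *NR4A3* with *CREM*, and in males from 0.55 for *FOS* with *CREM* to 0.80 for *ATF3* with *NR4A3*. The largest gap was that of *FOS* with *NR4A3*, where r was 0.09 in females (rho 0.07) and 0.67 in males (rho 0.70). *FOS* itself varied as much in females as in males, with SDs of 2.06 and 1.99, while *NR4A3* varied less in females, with SDs of 2.05 and 2.94. Fitted within a sex, *NR4A3* changed by 0.15 log2 units per SD of *FOS* in females (adjusted p = 0.898) and by 1.91 in males (adjusted p = 7.93e-06). Of the 20 ordered pairs of members, 12 passed in females alone and 20 in males alone. The 8 that did not pass in females were *FOS* and *MYC* with *NR4A3* and with *CREM*, each in both orders. Far fewer of all probes passed in females alone than over all pigs, as the last section gives. The share of all probes in males alone is not given here. The counts of pairs are therefore not read as particular to the members. The difference of the slopes of *NR4A3* on *FOS*, females minus males, was −1.74 (SE 0.42, adjusted p = 0.011), in a test that called 122 of 5448 probes (2.24%). The same test did not pass for *ATF3* (−0.71, adjusted p = 0.15), *MYC* (−0.45, adjusted p = 0.143) or *CREM* (−0.39, adjusted p = 0.121) on *FOS*. In the other order, with *FOS* on *NR4A3*, the difference was −0.95 (SE 0.35, adjusted p = 0.308) and did not pass. Among all ordered pairs the test called 1 (7 at an unadjusted p under 0.05).

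The sex difference in the slope of *NR4A3* on *FOS* was seen in the largest batch. In batch 2 the r of *FOS* with *NR4A3* was −0.07 in 36 females and 0.73 in 34 males, and the slopes differed there by −2.42 (adjusted p = 0.00264). In batch 1 it was 0.39 in 8 females and 0.52 in 6 males, and in batch 3 it was 0.45 in 11 females and 0.46 in 7 males, where the difference of the slopes was not tested. Without the 3 arrays whose *EIF1AY* level went against the label, the female r was 0.13 and the slopes differed by −1.68 (adjusted p = 0.0147). With the second *NR4A3* probe the slopes differed by −1.16 (adjusted p = 0.00846). The call was lost when 2 principal components of all probes were added to the model (−0.88, adjusted p = 0.982).

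**Figure D4:**
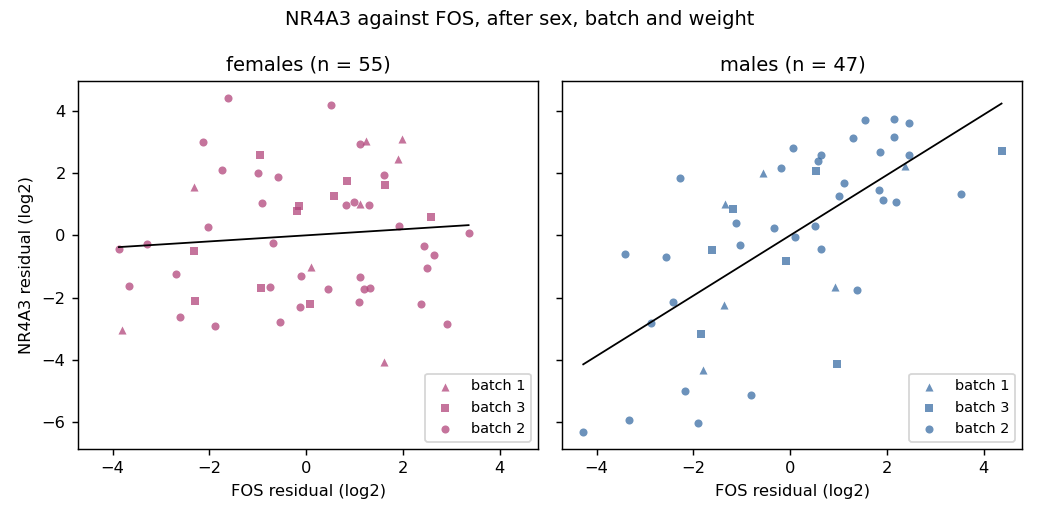
Residual log2 intensity of *NR4A3* (vertical axis) against that of *FOS* (horizontal axis) after sex, batch and carcass weight, in 55 females and 47 males. Each point is a pig, its shape gives the batch, and each line is a fit within the sex. The male points follow a rising line (r = 0.67), and the female line is nearly flat (r = 0.09).

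The closest partners among the named genes of the array were partly shared. *FOS* was followed by *DUSP1* (r = 0.85), *CYR61* (r = 0.83) and *BTG2* (r = 0.80), all 3 immediate-early genes themselves. *MYC* was followed by its target *EIF4A1* (r = 0.77), by *BTG2* (r = 0.71) and by *ANKRD1* (r = 0.70), an ankyrin repeat protein induced by stretch. *ATF3* was closest to *RRAD*, a small GTPase (r = 0.83), *HSF2*, a heat shock factor (r = 0.80), and *BTG2* (r = 0.78). For *NR4A3* the partners were *PPARGC1A* (r = 0.86), *PRKAG2*, a regulatory subunit of AMP-activated kinase (r = 0.84), and *RETREG1*, a receptor for autophagy of the endoplasmic reticulum (r = 0.80). *CREM* was closest to *NR4A3* (r = 0.71), to *ABRA*, a muscle activator of actin signalling (r = 0.67), and to *RETREG1* (r = 0.67).

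In the opposite direction the members shared partners. Both probes of *SIX4*, a homeobox factor of muscle development, were among the 3 most negative for *MYC* (r = −0.62 and −0.60), *ATF3* (−0.70 and −0.66), *NR4A3* (−0.68 and −0.67) and *CREM* (−0.60 and −0.58). *TBCC*, a tubulin folding cofactor, was among them for *MYC* (−0.57), *ATF3* (−0.68) and *CREM* (−0.63), and *MEIS1*, a homeobox factor, for *NR4A3* (−0.67). For *FOS* the 3 most negative were *CMBL*, a hydrolase (−0.57), *LRRC28* (−0.55) and *PABPN1*, a nuclear poly(A)-binding protein (−0.53). The probes of *SIX4* (−0.53 and −0.49) and *TBCC* (−0.50) lay close to these for *FOS*. *CMBL* moved against all 5 genes (r of −0.57 to −0.38). The *CMBL* probe lay near the bottom of the scale (mean 3.20), and its r with *FOS* was −0.39 in batch 1, −0.23 in batch 3 and −0.66 in batch 2. Of 5444 probes compared, 283 (5.2%) moved in the same direction with all 5 genes, 211 (3.88%) moved against all 5 and 2926 moved with none.

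To compare movement with *FOS* and with *NR4A3*, both were entered in 1 model and their signed slopes compared. The slope on *FOS* was the higher for 171 of 5447 probes (3.14%), and that on *NR4A3* for 318 (5.84%). A probe that moved against *FOS* could thus lie on the *NR4A3* side without following *NR4A3*. Examples were *PABPN1* (r of −0.53 with *FOS* and −0.04 with *NR4A3*) and *DYNC1I2* (−0.52 and 0.07). The 318 are therefore not all probes that followed *NR4A3*. On the *FOS* side *DUSP1* had r of 0.85 with *FOS* and 0.24 with *NR4A3* (slope difference 0.87, SE 0.08, adjusted p = 2.19e-14), and *EGR1* had r of 0.77 and 0.29 (1.33, adjusted p = 2.13e-07). On the *NR4A3* side *PPARGC1A* had r of 0.39 with *FOS* and 0.86 with *NR4A3* (−1.01, SE 0.12, adjusted p = 1.77e-10), and *PRKAG2* had r of 0.32 and 0.84 (−1.01, adjusted p = 1.77e-10). Of the members, *CREM* lay on the *NR4A3* side (−0.41, SE 0.10, adjusted p = 0.0024), while *ATF3* (−0.24, adjusted p = 0.447) and *MYC* (0.13, adjusted p = 0.585) passed on neither. Of the 30 other immediate-early genes, 15 lay on the *FOS* side and 2 on the *NR4A3* side.

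**Figure D5:**
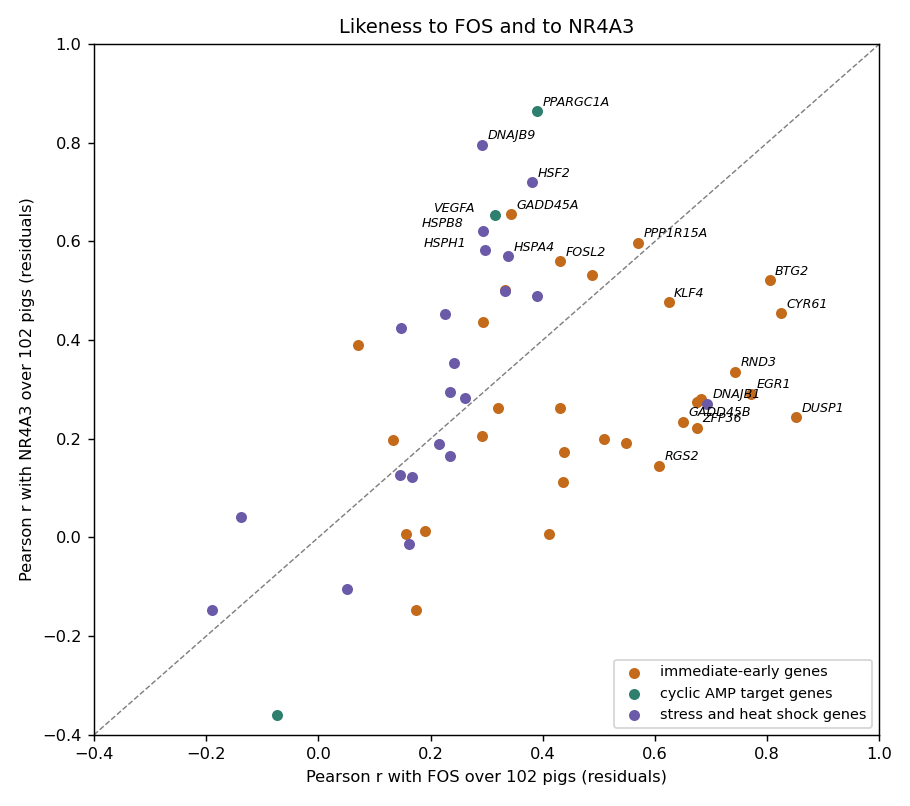
Pearson r with *FOS* (horizontal axis) against Pearson r with *NR4A3* (vertical axis) over residuals of 102 pigs, 1 point per measured gene of the immediate-early, cyclic AMP target and stress and heat shock lists, with a dashed line where both are equal. *DUSP1* and *EGR1* lie toward *FOS* (r of 0.85 and 0.77), and *PPARGC1A* (r of 0.86) and *DNAJB9* (r of 0.80) lie toward *NR4A3*.

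The wider lists differed in how many genes moved with each member. With *FOS*, 25 of the 30 other immediate-early genes moved along and 0 moved against it (median r 0.46, against 0.01 over all probes). The counts were 23 with *MYC*, 21 with *ATF3*, 17 with *NR4A3* and 18 with *CREM*, again with 0 against. *KLF4* (r of 0.48 to 0.62) and *PPP1R15A* (0.57 to 0.67), picked after their values were seen, passed with all 5. The heat shock and stress list had its largest count with *MYC*, where 17 of 21 moved along with it and 1 moved against it. With *ATF3* 15 of 21 passed, with *HSF2* at r = 0.80, *HSPA4* at 0.75 and *HSPB8*, a small chaperone of muscle, at 0.69, and with *FOS* 9 of 21 passed. Of the 8 measured MYC targets, 6 moved with *MYC* itself, and 3 to 4 with each of the other members.

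Genes that carry the upstream signals were counted in the same way. Of 12 measured genes of cyclic AMP signalling, 0 moved with *FOS* in either direction and 2 moved against each of *MYC*, *ATF3*, *NR4A3* and *CREM*, with 1 in the same direction as *NR4A3*. *PRKACA*, the catalytic subunit of protein kinase A, had r of −0.12 to 0.06 with the 5 genes. Of 6 measured genes of the MAP kinase cascade, 1 moved against *MYC* and 1 against *ATF3*, and 0 moved in the same direction as any member. Over all probes, 14.4% moved against *MYC*, 13.8% against *ATF3*, 13.6% against *NR4A3* and 9.95% against *CREM*. Counts of 1 or 2 in these 2 lists are therefore not read as particular to them. Of 7 measured targets of cyclic AMP, 6 moved with *FOS*, 5 with *MYC*, 5 with *ATF3*, 4 with *NR4A3* and 4 with *CREM*. *PDE4B*, a phosphodiesterase that degrades cyclic AMP and was picked after its values were seen, moved against *NR4A3* (r = −0.36, adjusted p = 0.00165). *NR4A2* moved with *FOS* (r = 0.55, adjusted p = 2.67e-07) and had r of 0.19 with *NR4A3* (adjusted p = 0.146).

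Markers of muscle fibres and of other cell types were counted likewise. Muscle fibre genes passed in 1 of 7 with *MYC* and in 0 of 7 with the other members. Of the satellite cell and myoblast list, 2 of 8 genes were measured, and *MYF6*, a myogenic factor, moved with all 5 genes (r of 0.42 to 0.56). In contrast, *MYOD1* moved against *NR4A3* (r = −0.27, adjusted p = 0.0245) and passed with no other member. The 2 genes did not move alike, so *MYF6* is not read as a signal of these cells. Of 6 measured macrophage and neutrophil markers 1, the scavenger receptor *CD163*, moved with each member (r of 0.27 to 0.41). In the fibroblast list 0 of 12 moved with *FOS* and 1 to 3 moved against each of the others, such as *COL3A1* with *NR4A3* (r = −0.38, adjusted p = 0.000683). Endothelial markers passed in 0 to 1 of 8 and adipocyte markers in 0 to 3 of 7 with any member, in either direction. In females 3 of 8 endothelial markers were lower and 3 of 12 fibroblast and 2 of 7 adipocyte markers higher. The part of cell composition in the members' movement was not tested.

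Where a gene had several probes, they did not behave alike in every respect. The second *NR4A3* probe had a median of 2.80 and reached 9.22, so it lay near the bottom of the scale in most pigs. It correlated with the first at r = 0.69, and it was lower in females by 1.65 log2 units (3.08 ± 0.97 in females and 4.64 ± 2.26 in males, difference −1.65, adjusted p = 8.78e-05). With this probe *NR4A3* passed for batch (adjusted p = 0.040), with batch 3 below batch 2 (difference −1.18, adjusted p = 0.0126). The second *CREM* probe followed the first closely (r = 0.92) and gave the same calls for sex (−0.80, adjusted p = 0.00076) and for each pair of batches. The third *CREM* probe correlated at r = 0.50 and was also lower in females (−0.44, adjusted p = 0.000617). It ran the other way between batches, with a mean of 5.82 ± 0.53 in batch 3 and 4.99 ± 0.45 in batch 2 (difference 0.78, SE 0.14, adjusted p = 3.1e-07).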

How the data were processed

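RNA of *Longissimus dorsi* muscle had been hybridised to Affymetrix porcine arrays, 1 per pig. The log2 values deposited by the authors had been generated in GCOS, checked with AffyPLM and normalized by GCRMA in BRB-ArrayTools. No version of GCRMA is named in the labels or methods read. The authors kept probes that vary, and 5340 of the 5449 probes tested here passed a filter of at least 1.5-fold from the median in over 20% of pigs. Control probes (44 of 5493) were left out. One symbol was given for 2639 probes, several for 49 and none for 2761. Arrays carry no counts, so the number of pigs limits the precision.

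The main model was limma 3.58.1 in R 4.3.3 on sex, carcass weight and slaughter batch. Tests were two-sided. Adjustment was by Benjamini-Hochberg over all probes, with a threshold of 0.05. Movement with a gene was the slope of a probe on that gene's residual, per SD, with its own probe left out. Correlations used residuals, and 10 pairs of members and 45 relations with other measures were computed. Permutation tests used 100000 draws. Gene lists (17) used the probe with the highest mean and are given as counts without a set test. In 3 of them (MYC network, lymphocyte, red blood cell) no gene was measured. Named genes were the 5 members, the 3 named probes with the largest r in each direction for each member, and up to 4 genes of each list with the smallest p for batch or movement. The members, lists and rule were chosen with earlier results of these data known. The model code was tested on simulated data. Pigs were treated as independent although related. No sequence or genome position was used.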

Additional observations from a re-analysis of the deposited data

Results flagged for a closer look

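The slope of *NR4A3* on *FOS* differed between the sexes. Per SD of *FOS*, *NR4A3* changed less in females than in males by 1.74 log2 units (females minus males −1.74, SE 0.42, adjusted p = 0.011 by limma over 5448 probes), and it was singled out because this test of the difference itself passed. It was looked at after the correlations within each sex had been seen, and it was the only 1 of 20 ordered pairs of members that passed. In the other order, with *FOS* on *NR4A3*, the difference was −0.95 (SE 0.35, adjusted p = 0.308) and did not pass. Over the alternatives the difference for *NR4A3* on *FOS* ranged from −2.42 in batch 2 alone to −0.88 with 2 principal components added, where it did not pass (adjusted p = 0.982). Its cause was not tested.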

How the results depend on the processing

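The calls of *MYC*, *ATF3*, *NR4A3* and *CREM* as lower in females were kept under each alternative run except in batch 1 or batch 3 alone, where the sex test called 13 and 16 of all probes and *FOS* was at 0.54 in batch 1. The run with 2 principal components left batch differences unchanged, and it is not read as an adjustment of the sex differences either. The batch test was less stable. *FOS* kept its call over the 3 batches in 7 of 14 alternatives, *MYC* in 6 and *ATF3* in 8. *CREM* kept it in all 14, and *NR4A3* had no call to lose. With age added, batch 1 minus batch 2 turned to −0.018 for *FOS* and 0.34 for *MYC*, and batch 1 minus batch 3 to −0.18 for *NR4A3*. Batch 1 minus batch 2 also turned to 0.20 for *NR4A3* with array weights, to 0.040 for *NR4A3* in females only and to −0.50 for *FOS* in males only. None of these values had passed at first. *ATF3* gained a call in batch 1 minus batch 2 and in batch 1 minus batch 3 with 2 principal components (0.80 and 1.56) and with array weights (1.32 and 1.70), and *FOS* in batch 1 minus batch 3 with 2 principal components (1.68). The values of 0.80, 1.56 and 1.68 were the same without the 2 principal components, which thus did not adjust them. Without the 5 arrays least correlated with the rest, the batch calls of *FOS* (adjusted p = 0.20), *MYC* (0.213) and *ATF3* (0.262) were lost.

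The weight test, which called 0 probes, called 258 with 2 principal components, 126 with array weights, 3412 with no other covariates, and 1 each with the spike-in mean, without the arrays against the sex label, without the 5 least correlated arrays and with batch as a random block. Weight slopes turned to 0.15 for *MYC*, 0.084 for *ATF3* and 0.041 for *CREM* with no other covariates, and to 0.034 for *MYC* and 0.0088 for *ATF3* with array weights.

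Probes moving with a member numbered 1025 for *FOS*, 1601 for *MYC*, 1511 for *ATF3*, 1553 for *NR4A3* and 1143 for *CREM*. With 2 principal components they numbered 228 for *FOS*, 230 for *MYC*, 922 for *NR4A3* and 731 for *CREM*, and the slopes of *NR4A3* on *MYC* (−0.11) and of *MYC* on *NR4A3* (−0.043) turned. With no covariates they numbered 2454 for *FOS* and 2888 for *MYC*. In females only they were 112, 101, 209, 205 and 69 for *FOS*, *MYC*, *ATF3*, *NR4A3* and *CREM*. The comparison of slopes on *FOS* and *NR4A3* called 489 probes, against 324 with the actin difference, 1112 with array weights, 296 with Benjamini-Yekutieli adjustment at 0.20, 205 with the second probes, 295 in batch 2, 162 in females and 22 in males. In it *ATF3* turned to 0.036 with 2 principal components and *MYC* to −0.026 with no covariates, neither having passed. *MYC* passed on the *FOS* side with 2 principal components (0.30, adjusted p = 0.0411), and *CREM* lost its call in females only (−0.29, adjusted p = 0.0842) and in males only (−0.52, adjusted p = 0.361). The slope difference by sex called 1 pair of members, but 0 with 2 principal components and 2 without the 5 least correlated arrays or with the second probes. The slope by batch called 0 pairs, but 1 with 2 principal components. Of the 10 pairs of members, 5 passed within batch 1 alone. The causes of these changes were not tested. Chosen after seeing the data were the sex effect in batch 1 or 3 alone and relative to *FOS*, the batch effect within a sex, the comparison of slopes on *FOS* and *NR4A3*, and the alternatives of the slopes by sex and by batch and of sex by batch. No paired analysis was possible because each pig has a number of its own.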
